A study of Mus musculus with 4 samples.

Results

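The 10 genes described here encode antioxidant enzymes: the superoxide dismutases Sod1, Sod2 and Sod3, catalase (Cat), and Hmox1, Nqo1, Gclc, Gclm, Txnrd1 and Srxn1. Their probes were found by the RefSeq transcript that each spot of the array is assigned to, which gave 12 probes of 55619 on the array, 10 genes of 37042 genes or unnamed transcripts. Catalase and Hmox1 had 2 probes each and the other genes had 1, and each probe was printed once per array.

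The study examined what the NF-κB subunit Rela does in the cartilage of embryonic limbs and of adult joints. Its arrays were run to find genes through which Rela protects cartilage cells from apoptosis. For this the cells were treated with tumour necrosis factor (TNF), an inflammatory cytokine. Primary chondrocytes, cells grown directly from the cartilage of 6-day-old C57BL/6J mice, came from Rela fl/fl mice, whose Rela alleles carry loxP sites but stay intact without Cre, and from Prrx1-Cre;Rela fl/fl littermates (cKO), which carry the same floxed alleles and in which the Prrx1 promoter drives Cre in limb bud mesenchyme. Cells of each genotype were cultured for 3 days with 10 ng/ml TNF or without it, and their RNA was hybridised to a 1-colour expression array. There were 4 arrays, 1 for each combination of genotype and TNF, so that no value below has a replicate and no difference was tested. The Rela fl/fl cells are called controls below, and the arrays of the Prrx1-Cre;Rela fl/fl cells are named by their label.

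Superoxide dismutases turn superoxide into hydrogen peroxide: Sod1 in the cytosol with copper and zinc, Sod2 in mitochondria with manganese, and Sod3 with copper and zinc outside the cell, in the matrix. Catalase, peroxiredoxins and glutathione peroxidases then remove the peroxide. Hmox1, Nqo1, Gclc, Gclm, Txnrd1 and Srxn1 are textbook targets of the transcription factor NRF2, which binds antioxidant response elements, whereas Sod2 is a classic target of NF-κB that TNF induces in many cell types.

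The promoters of 7 of the 10 genes were in the RefSeq table used here (build GRCm38.p6). The 250 bases before the start site are shown for Sod2, the gene of the family best known as an NF-κB target, for Srxn1, which had the widest gap between 1 array and the rest among the 10 genes, and for Prdx1, a peroxiredoxin that was brightest on the same array. Capitals mark GC boxes in Sod2, and AP-1 motifs in Srxn1 and Prdx1, where the second run of capitals in Prdx1 is an AP-1 motif that overlaps an antioxidant response element core.
Sod2 promoter, chr17:13007589-13007838, plus strand: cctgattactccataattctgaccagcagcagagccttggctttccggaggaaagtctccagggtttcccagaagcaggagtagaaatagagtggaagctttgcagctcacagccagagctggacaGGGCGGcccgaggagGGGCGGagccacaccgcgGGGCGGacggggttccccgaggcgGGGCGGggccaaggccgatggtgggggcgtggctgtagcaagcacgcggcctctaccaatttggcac
Srxn1 promoter, chr2:152105274-152105523, plus strand: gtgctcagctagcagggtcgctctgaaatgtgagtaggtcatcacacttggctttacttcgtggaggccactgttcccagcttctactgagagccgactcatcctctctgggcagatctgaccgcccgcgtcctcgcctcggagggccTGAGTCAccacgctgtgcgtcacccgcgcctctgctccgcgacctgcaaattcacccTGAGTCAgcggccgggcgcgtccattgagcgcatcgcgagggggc
Prdx1 promoter, chr4:116685349-116685598, plus strand: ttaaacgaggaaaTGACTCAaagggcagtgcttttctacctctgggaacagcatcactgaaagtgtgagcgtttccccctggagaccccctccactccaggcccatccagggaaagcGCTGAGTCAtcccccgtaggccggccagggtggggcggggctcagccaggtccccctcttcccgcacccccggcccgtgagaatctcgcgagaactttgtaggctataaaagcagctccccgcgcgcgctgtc

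Both strands of each window were searched for 4 motifs. A κB motif was found in 1.41% of 32851 mouse promoters of this length and in none of the windows of these 7 genes or of Prdx1. The Sod2 window held 4 GC boxes (GGGCGG), a motif found in 32.7% of promoters. The antioxidant response element core (TGACNNNGC, in 10.2% of promoters) was found in the windows of Sod1, Gclm and Prdx1 and in 1 of the 3 windows of Txnrd1. The AP-1 letters TGANTCA, in 6.75% of promoters, were found at -102 and -45 from the start site of Srxn1 and at -237 and -131 from that of Prdx1, and in no other window of these genes. Only the letters given were searched, so that a window without a match can still hold another form of a motif. A match of letters is a description of this window only.

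Values are signals scaled so that each array's 75th percentile over transcript spots is 1, and differences are on the log2 scale. All 12 probes were well above background on all 4 arrays, and none of their spots was saturated or marked as an outlier. The error that the scanner software gave for these spots was between 10.0% and 10.8% of the signal. The technical spread (SD) of a difference between 2 arrays was 0.14, so that 2 spreads are 0.28. It was derived from the scatter of repeat spots within each array. Of 399 probes printed 10 times, 173 to 215 per array entered, with all spots well above background and none an outlier. The spread thus leaves out all variation between arrays, labelling reactions and cultures. The SD of a difference of 2 differences was 0.20, and 2 such spreads are 0.39. Between 1.04% and 10.7% of the spots of an array lay in bright patches, regions in which many spots were brighter on that array than on the others, and the spots of Nqo1 (control with TNF) and Srxn1 (control without TNF) were the only ones of the 10 genes inside them.

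Before the enzymes, the labels were checked. The signal of Rela was 28.4 and 34.9 in controls without and with TNF, and 34.0 and 40.2 on the cKO-labelled arrays, so that the deletion was not seen there. Whether its probe lies inside the deleted part was not tested. All 9 chondrocyte markers were well above background on all arrays, and Col2a1, the main collagen of cartilage, read 597, 610, 584 and 608 in the same order. The summed chondrocyte signal was 1564 and 1496 in controls and 1272 and 1297 on the cKO-labelled arrays, with 6 of 9 markers lower there by over 2 spreads without TNF and 4 with it. In controls, 4 of the 9 were lower with TNF by over 2 spreads, Acan, Matn1, Matn3 and Hapln1. On the cKO-labelled arrays none was lower with TNF and Matn1 was higher, by 0.37. The summed signal of 5 fibroblast markers was between 564 and 648, most of it from collagens. Of the other fibroblast markers, Thy1 was lower on the cKO-labelled array without TNF, with a difference of -1.59, and Dpt, with spots in patches on 3 arrays, was lower without and with TNF, with -1.62 and -1.17. With TNF, Col3a1 was also lower there, with -0.38. The TNF change of Thy1 was -0.69 in controls and 0.63 on the cKO-labelled arrays, that of Dpt was 0.01 and 0.47, and that of Col3a1 was 0.28 and 0.11. The summed signal of 7 leukocyte markers was between 35.9 and 44.7, most of it from 1 Itgam probe. Without TNF, 2 leukocyte markers were higher on the cKO-labelled array by 2 spreads (Adgre1 and Cd14, by 2.87 and 0.31) and 2 were lower (Lyz2 and Fcer1g, with -2.11 and -0.45), and the brighter spots of Adgre1 and Lyz2 lay in patches. With TNF, none was higher and 2 were lower (Adgre1 and Lyz2, with -0.50 and -0.94), so that Adgre1 differed in opposite directions without and with TNF. Cd14 was higher with TNF in controls and on the cKO-labelled arrays, by 0.54 and 0.46. Lower with TNF were Lyz2 and Fcer1g in controls, where Lyz2 changed by -1.42, and Adgre1 and Itgam on the cKO-labelled arrays, where Adgre1 changed by -3.48. Ptprc, which marks all leukocytes, was not well above background on any array. Xist was well above background only in controls, where it read 0.719 and 0.755, and the Y-linked Ddx3y, Eif2s3y and Uty were higher on the cKO-labelled arrays. The genotype label therefore cannot be told apart from these other differences between the same arrays, and their part in the values below was not tested. In such bulk RNA, fewer cells that express a gene cannot be told apart from less RNA per cell.

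With TNF in controls, 2 of the 10 antioxidant genes, Sod3 and Sod2, were higher by more than 2 technical spreads, and 1, Nqo1, was lower. None reached a log2 difference of 1. Over all 23408 genes tested, 11.4% were higher and 12.2% lower by 2 spreads (9.9% and 10.2% of 14577 with a symbol), and 2.39% were higher and 4.27% lower by a log2 difference of 1. Of the antioxidant genes, 20% were higher and 10% lower, shares of 2 genes and 1 gene near this background. On the cKO-labelled arrays, 2 genes were higher with TNF by 2 spreads, Srxn1 and Hmox1, and none was lower. Of 24903 genes tested, 13.8% were higher and 15.9% lower (13.4% and 10.4% of those with a symbol). The count of lower antioxidant genes was 1 (Cat) without scaling and with quantile normalization, the authors' values or normexp. None reached a log2 difference of 1, a limit that 1.02% of genes passed upwards and 4.46% downwards. The median TNF change of the 10 genes was 0.10 in controls and 0.12 on the cKO-labelled arrays, and the median over all genes was 0.01 and 0.06.

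Sod2 (NM_013671), the mitochondrial enzyme, had a signal of 36.7 in controls without TNF and 49.0 with TNF, and of 33.0 and 35.7 on the cKO-labelled arrays without and with TNF. The control array with TNF was thus the high one, and the other 3 arrays differed by less than 2 spreads from their neighbours in order. The TNF change was 0.42 on the log2 scale (1.34-fold, 3.03 spreads) in controls and 0.11 (1.08-fold) on the cKO-labelled arrays. The difference of these changes was -0.30, inside 2 of its spreads, and ranged from -0.42 to -0.30 over the settings tried, of which it passed without scaling only. Among genes with a symbol, 94.1% had a smaller TNF change than Sod2 in controls, and 59.7% had on the cKO-labelled arrays.

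Sod3 (NM_011435), the extracellular enzyme of the matrix, had the largest TNF change of the 10 genes. Its signal was 39.2 and 69.8 in controls without and with TNF, and 44.8 and 52.5 on the cKO-labelled arrays. The control array with TNF was again the highest, 0.41 above the next array, and the lower 3 arrays were within 2 spreads of their neighbours. Sod3 was 1.78-fold higher with TNF in controls (0.83 on the log2 scale, 6.03 spreads) and 1.17-fold on the cKO-labelled arrays (0.23, within 2 spreads). The difference of the changes, -0.61, was past 2 of its spreads, as it was below that limit in 6.40% of 13353 genes with a symbol and a signal well above background throughout. Its change in controls was larger than that of 97.8% of genes with a symbol.

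Sod1 (NM_011434), the abundant cytosolic enzyme, varied least of the 10 genes. Its signal was 72.5, 69.5, 66.0 and 72.7 in controls without and with TNF and on the cKO-labelled arrays without and with TNF. All 4 arrays lay within 0.14 on the log2 scale, which is inside 2 spreads. Changes were also taken relative to Sod1, which removes the scaling of the arrays but adds the movement of Sod1 itself, a TNF change of -0.06 in controls and 0.14 on the cKO-labelled arrays, 0.20 apart. Relative to Sod1, Sod2 changed by 0.48 with TNF in controls and by -0.03 on the cKO-labelled arrays. Sod3 changed by 0.89 and 0.09. The wider gap for Sod2 than without Sod1 is that 0.20.

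**Figure D1:**
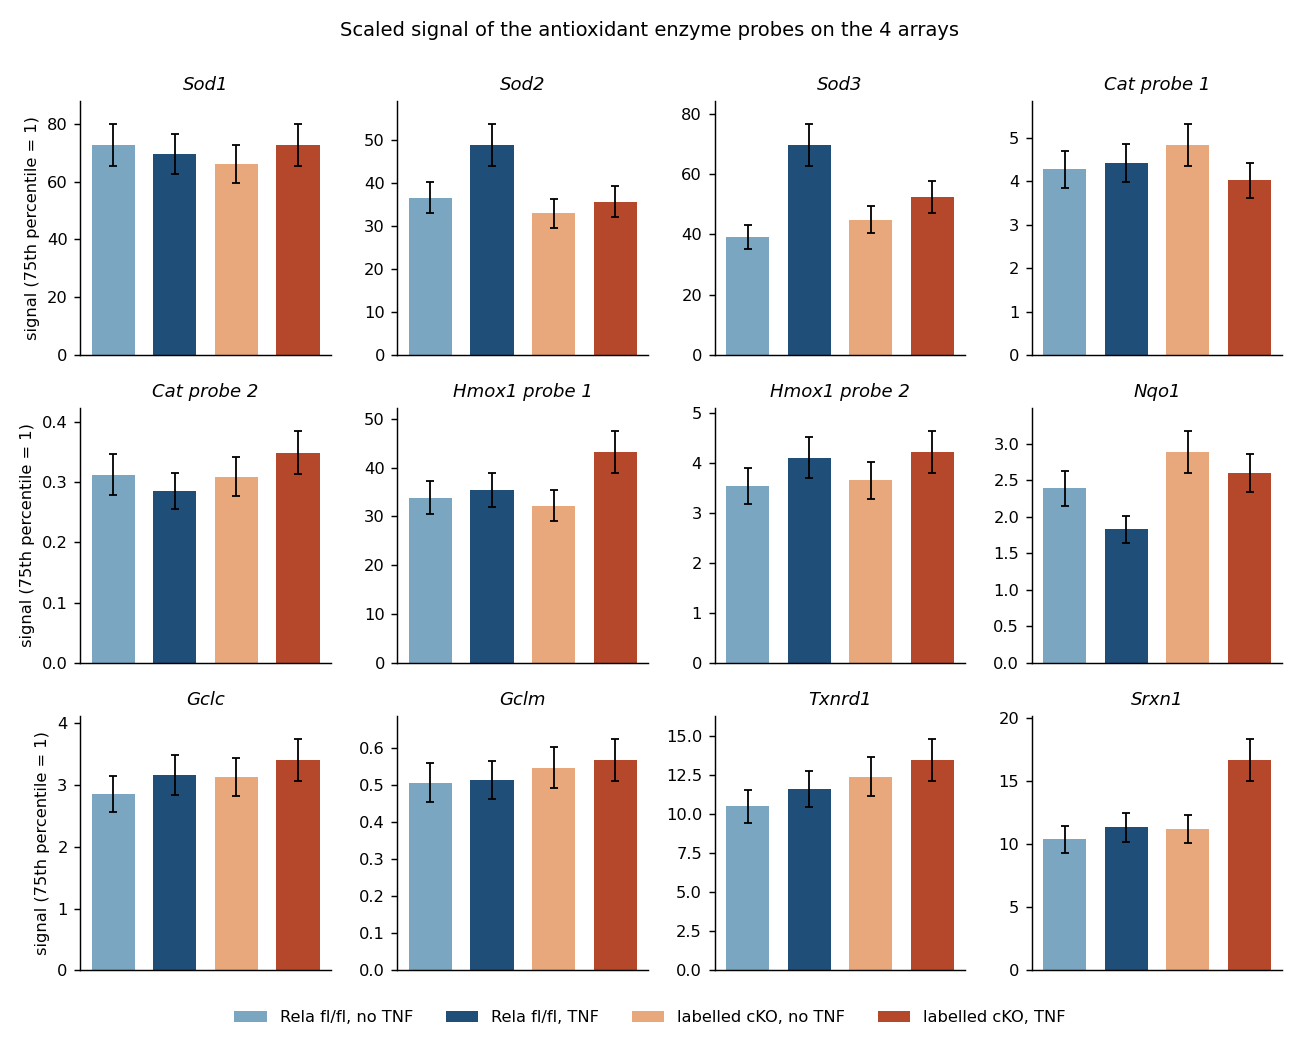
Scaled signal (75th percentile of each array = 1) of the 12 probes of the antioxidant genes on the 4 arrays, with 1 bar per array and a separate axis per probe, starting at 0. Error bars are the scanner software's error of the spot, not a replicate error. For Sod2 and Sod3 the bar of controls with TNF is the highest (49.0 and 69.8), and for Srxn1 that of the cKO-labelled array with TNF (16.7).

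Catalase (NM_009804), the peroxisomal enzyme that splits hydrogen peroxide, was read by 2 probes. The brighter probe had signals of 4.28 and 4.42 in controls without and with TNF, and of 4.84 and 4.02 on the cKO-labelled arrays. The dimmer probe had 0.313, 0.285, 0.310 and 0.349 in the same order. The probes moved in opposite directions with TNF, by 0.05 and -0.14 in controls and by -0.27 and 0.17 on the cKO-labelled arrays, each inside 2 spreads. No gap between neighbouring arrays in the order of either probe passed 2 spreads.

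Srxn1 (NM_029688), sulfiredoxin, which repairs overoxidised peroxiredoxins, had a signal of 10.4 and 11.3 in controls without and with TNF, and of 11.2 and 16.7 on the cKO-labelled arrays. The cKO-labelled array with TNF was the high one, 0.56 above the next, and the other 3 arrays lay close together. Srxn1 was 1.49-fold higher with TNF on the cKO-labelled arrays (0.57, 4.13 spreads) and 1.09-fold higher in controls (0.13, inside 2 spreads). The difference of the changes was 0.44, past 2 of its spreads, a limit that 7.72% of genes passed upwards. It ranged from 0.33 to 0.49 over the settings tried, so that it did not pass in all of them. The spot of controls without TNF lay in a patch, and it enters the TNF change in controls and so this difference, but not the TNF change on the cKO-labelled arrays. With patches left out, the difference had no value.

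Hmox1 (NM_010442), haem oxygenase 1, which breaks down haem, was also read by 2 probes. The brighter probe had a signal of 33.8 and 35.4 in controls without and with TNF, and of 32.2 and 43.1 on the cKO-labelled arrays. Its TNF change was 0.07 in controls and 0.42 (1.34-fold, 3.04 spreads) on the cKO-labelled arrays. The dimmer probe had 3.55, 4.11, 3.66 and 4.22 in the same order, a TNF change of 0.21 in both genotypes, inside 2 spreads. The difference of the TNF changes was 0.35 for the brighter and -0.01 for the dimmer probe, both inside 2 spreads of such a difference.

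Nqo1 (NM_008706), a quinone reductase, was the gene of the family that was lower with TNF in controls. Its signal was 2.39 and 1.83 in controls without and with TNF, and 2.88 and 2.60 on the cKO-labelled arrays. The TNF change was -0.39 (0.764-fold) in controls and -0.15 on the cKO-labelled arrays, the latter inside 2 spreads. The lowest value, of controls with TNF, is that of the spot in a patch. On the other 3 arrays Nqo1 had no gap between neighbours past 2 spreads.

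The remaining 3 enzymes stayed inside 2 spreads in all comparisons. Gclc (NM_010295) and Gclm (NM_008129), the catalytic and modifier subunits of the enzyme that limits glutathione synthesis, had signals between 2.85 and 3.41 and between 0.506 and 0.567 over the 4 arrays. Txnrd1 (NM_001042523), the cytosolic thioredoxin reductase, read 10.5 and 11.6 in controls without and with TNF, and 12.4 and 13.5 on the cKO-labelled arrays. The TNF changes of these 3 genes were between 0.02 and 0.15 in controls and between 0.05 and 0.12 on the cKO-labelled arrays.

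**Figure D2:**
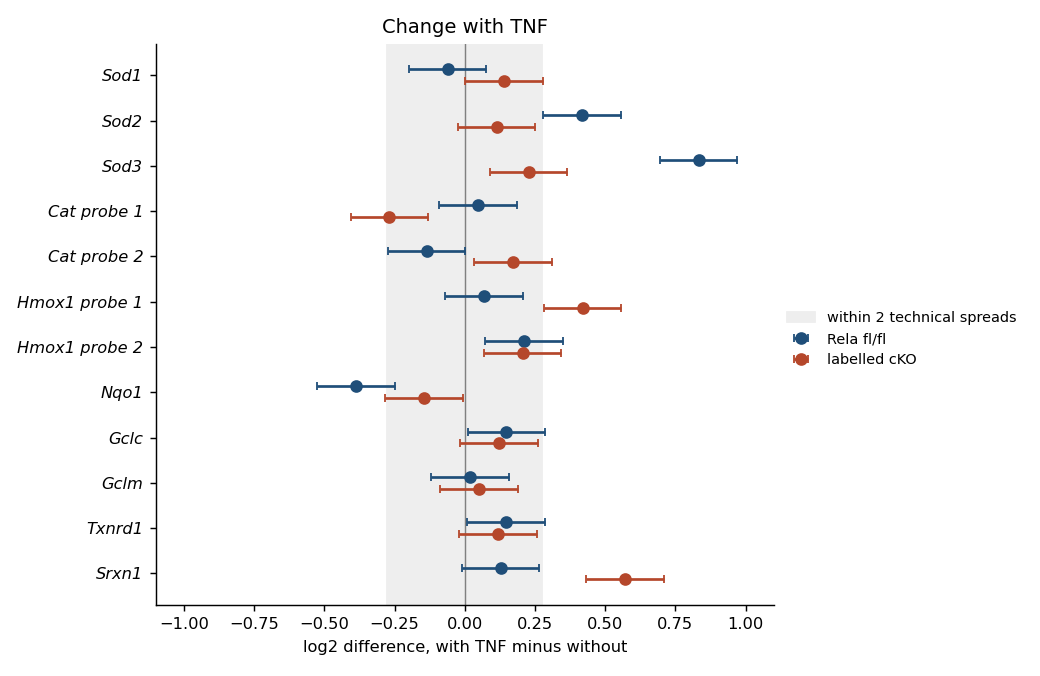
Log2 difference with TNF minus without for each of the 12 probes, in controls and on the cKO-labelled arrays. Bars are 1 technical spread on each side and the grey band marks 2 spreads around 0. Sod2 and Sod3 lie right of the band in controls only (0.42 and 0.83), and Srxn1 and the brighter Hmox1 probe on the cKO-labelled arrays only (0.57 and 0.42).

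Between the genotypes without TNF, none of the 10 genes differed by 2 spreads. Of 24277 genes tested, 16.7% were higher and 12.6% lower on the cKO-labelled array (12.8% and 12.1% of those with a symbol). The count of higher antioxidant genes depended on the scaling, and was 2 without scaling and 1 with the authors' values. None passed a log2 difference of 1, as 3.51% of genes did upwards and 4.4% downwards. The largest differences were 0.27 for Nqo1 and 0.24 for Txnrd1, both higher on the cKO-labelled array and both inside 2 spreads. Sod1 and Sod2 differed by -0.13 and -0.15, and Sod3 by 0.19. The median of the 10 genes was 0.12, and that of all genes was 0.00.

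With TNF, 5 of the 10 genes differed between the genotypes by 2 spreads. Srxn1, Nqo1 and Hmox1 were higher on the cKO-labelled array, and Sod2 and Sod3 were lower. The count of 3 higher genes became 2 with patches left out, since Nqo1 then had no value, and also 2 with no scaling, quantile normalization, the authors' values, normexp or the mean or median over probes, where Hmox1 was inside 2 spreads. Of 24513 genes tested, 16.9% were higher and 12.3% lower by this limit (16.2% and 11.3% of those with a symbol). No member passed a log2 difference of 1, which 1.16% of genes passed upwards and 3.21% downwards. The median of the 10 genes was 0.13 and that of all genes 0.05, with 7 of the 10 above 0 and 3 below.

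Sod2 was 0.729-fold as bright on the cKO-labelled array with TNF as in controls with TNF (-0.46 on the log2 scale, 3.30 spreads), and Sod3 0.752-fold (-0.41). Relative to Sod1, which differed by 0.07, these differences were -0.52 and -0.48. Among genes with a symbol, 6.57% had a lower value than Sod2 in this comparison and 7.41% had a lower value than Sod3. In the other direction, Srxn1 was 1.47-fold brighter on the cKO-labelled array (0.56, 4.03 spreads) and Nqo1 1.43-fold (0.51, 3.70 spreads). Hmox1 differed by 0.28 with its brighter probe, at the limit, and by 0.04 with its dimmer probe. Catalase differed by -0.14 with its brighter probe, inside 2 spreads, and by 0.29 with its dimmer probe, past 2 spreads (2.12). The catalase probes thus differed in sign, and the brighter one stood for the gene in the counts. Over the settings tried, the Hmox1 difference ranged from 0.16 to 0.28. The comparisons with TNF in controls and between the genotypes with TNF share the control array with TNF, so a high value on that array enters both with opposite signs. The comparisons on the cKO-labelled arrays and between the genotypes with TNF share the cKO-labelled array with TNF in the same way, with equal signs.

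**Figure D3:**
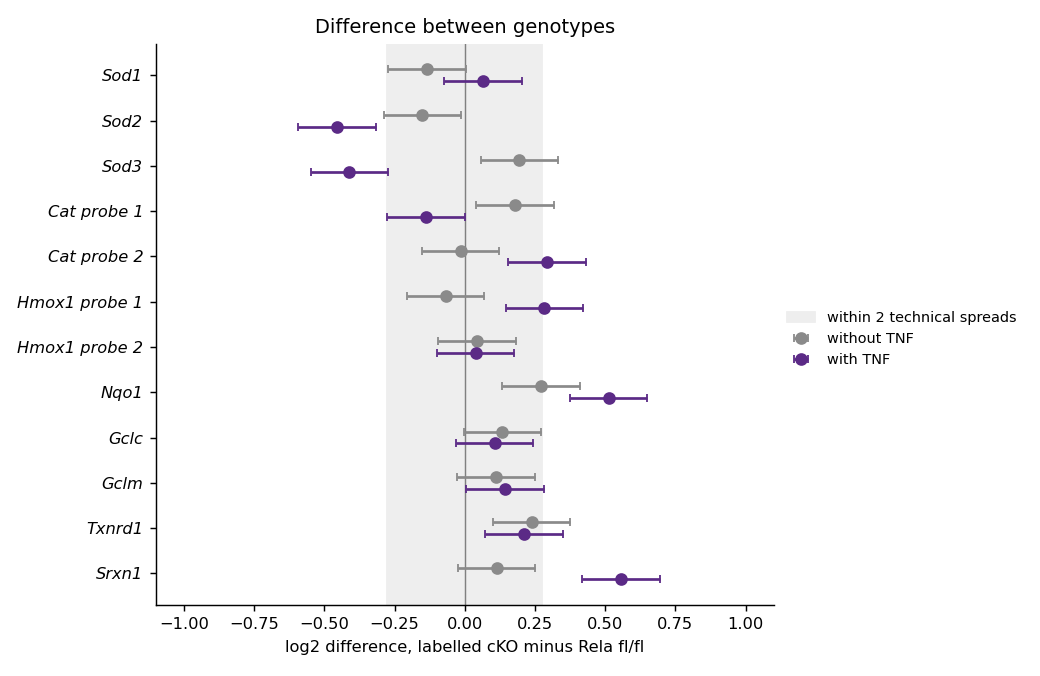
Log2 difference of the cKO-labelled array minus that of controls for each of the 12 probes, without and with TNF. Bars are 1 technical spread on each side and the grey band marks 2 spreads around 0. Without TNF all probes lie inside the band. With TNF, Sod2 and Sod3 lie left of it (-0.46 and -0.41) and Nqo1 and Srxn1 right of it (0.51 and 0.56). The brighter Hmox1 and the dimmer catalase probe lie just past its right edge (0.28 and 0.29).

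Other genes of the same pathways were described by counts past 2 spreads and by their medians. None of the 4 genes that supply copper or zinc to the dismutases (Ccs, Atox1, Atp7a, Slc30a5) passed the limit in any comparison. Atp7a, the copper pump, changed by 0.12 with TNF in controls and by 0.02 on the cKO-labelled arrays. Atox1, the copper chaperone that delivers to it, changed by -0.08 and 0.19.

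Of 13 peroxiredoxin and thioredoxin genes, none passed 2 spreads with TNF in controls, where 11.4% of all genes tested were higher and 12.2% lower. On the cKO-labelled arrays 1, Prdx1, was higher and none was lower (7.69% and 0% of the list), against 13.8% and 15.9% of all genes. Between the genotypes with TNF, Prdx1 and Txn1 were higher on the cKO-labelled array and Txnip was lower. These are 15.4% and 7.69% of the list, against 16.9% and 12.3% of all genes tested. Prdx1, a cytosolic peroxiredoxin and substrate of sulfiredoxin, was singled out after its values were seen. It read 46.5 and 49.6 in controls without and with TNF, and 48.9 and 71.8 on the cKO-labelled arrays, so that the cKO-labelled array with TNF was the high one, as for Srxn1. Its TNF change was 0.09 in controls and 0.56 on the cKO-labelled arrays, and its dimmer probe gave 0.03 and 0.61. Txnip, the thioredoxin inhibitor, read 8.02, 9.03, 6.19 and 6.56 in the same order, and was lower on the cKO-labelled arrays without and with TNF, with differences of -0.37 and -0.46. Its spot in controls with TNF lay in a patch, and its dimmer probe, outside patches, gave -0.27 and -0.77. With patches left out, no gene of the list counted as lower between the genotypes with TNF. Prdx2, another cytosolic peroxiredoxin, changed by 0.20 and 0.09 with TNF in the 2 genotypes, inside 2 spreads.

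Among 13 glutathione peroxidases and genes that make, carry and recycle glutathione, 5 were higher with TNF on the cKO-labelled arrays (Gsr, Gss, Glrx, Slc7a11 and Ggct) and 1 was lower (Gpx2), with a median of 0.19. These are 38.5% and 7.69% of the list, against 13.8% and 15.9% of all genes tested. In controls 1 was higher (Glrx) and 2 were lower (Gpx2 and Slc7a11), with a median of 0.03. Gss, glutathione synthase, read 2.98 and 3.04 in controls and 3.38 and 4.50 on the cKO-labelled arrays, where its TNF change was 0.41, with a spot in a patch on the cKO-labelled array without TNF. Glrx, glutaredoxin, was higher with TNF in controls and on the cKO-labelled arrays, by 0.44 and 0.48. Slc7a11, the cystine carrier, changed by -1.53 in controls, where its spot without TNF lay in a patch, and by 0.34 on the cKO-labelled arrays, where the scanner software's error was 17.4% and 13.7% of its signal. Gpx2, an epithelial glutathione peroxidase, changed by -0.79 and -2.84, with spots in patches on both arrays without TNF. Outside patches, 4 of 10 genes of the list were higher with TNF on the cKO-labelled arrays and none was lower, against 13.7% and 8% of all genes with a symbol outside patches.

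Among 20 other NRF2 targets, 1 was higher and 3 were lower with TNF in controls (5% and 15%), against 11.4% and 12.2% of all genes tested. On the cKO-labelled arrays 1 was higher and none was lower (5% and 0%), against 13.8% and 15.9%. Mgst1, a membrane glutathione transferase, was higher with TNF in controls and was lower on the cKO-labelled array with TNF. It read 0.774 and 1.18 in controls without and with TNF, and 0.781 and 0.752 on the cKO-labelled arrays, a TNF change of 0.61 and -0.05, and its dimmer probe gave 0.59 and -0.08. Osgin1, an oxidative stress-induced growth inhibitor, differed most between the genotypes with TNF among these targets, by 0.79, with signals of 0.929, 0.758, 1.03 and 1.31. Gsta3, a dim glutathione transferase, changed by -0.48 and 0.13 with TNF. Between the genotypes with TNF, 3 of the 20 were higher on the cKO-labelled array (G6pdx, Osgin1 and Gsta4), 1 was lower (Mgst1), and the median was 0.17. These are 15% and 5% of the list, below the 16.9% and 12.3% of all genes tested.

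Of NRF2 and 9 of its partners and regulators, 3 were higher with TNF in controls (Bach1, Maff and Trim16), 2 on the cKO-labelled arrays (Maff and Trim16), and none was lower. Over all genes tested, 11.4% were higher and 12.2% lower in controls, and 13.8% and 15.9% on the cKO-labelled arrays. With patches left out, 2 were higher in controls, against 8.51% of genes with a symbol. The other probe of Trim16 changed by 0.21 in controls, inside 2 spreads, and by 0.61 on the cKO-labelled arrays. Nfe2l2, which encodes NRF2 itself, read 10.5 and 10.9 in controls and 10.8 and 12.4 on the cKO-labelled arrays, and Keap1, which targets NRF2 for degradation, read 6.79 and 6.17, and 5.86 and 6.00. All differences of these 2 genes between arrays named here were inside 2 spreads. Maff, a small MAF protein that pairs with NRF2, read 0.467 and 0.789 in controls without and with TNF, and 0.609 and 1.22 on the cKO-labelled arrays, and its spot in controls without TNF lay in a patch.

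Of 15 genes that produce superoxide or peroxide, 9 were tested. With TNF, 2 were higher (Nox4 and Xdh) and 1 lower (Noxa1) in controls, and 2 were higher (Nox1 and Xdh) and 2 lower (Noxo1 and Noxa1) on the cKO-labelled arrays, beside the same shares of all genes as for the list above. Cybb, the catalytic subunit of the phagocyte oxidase, and Rac2 were not well above background on any array. Xdh, xanthine dehydrogenase, read 0.379 and 0.728 in controls without and with TNF, and 0.338 and 0.430 on the cKO-labelled arrays, so that, as for Sod2 and Sod3, controls with TNF were the highest. Its TNF change was 0.94 and 0.35. Nox4, an oxidase that releases hydrogen peroxide, changed by 0.70 and -0.18, with signals of 0.336, 0.544, 0.632 and 0.557, and was lowest in controls without TNF. Its dimmer probe, with spots in patches on both control arrays, changed by 0.19 and -0.48. Noxa1, an oxidase activator, changed by -0.72 and -1.21, with spots in patches on both arrays without TNF.

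A set of 8 well-known NF-κB targets was described for scale. All 8 were higher by 2 spreads with TNF in controls, with a median of 0.995, and 6 were on the cKO-labelled arrays, with a median of 0.54. Tnfaip3, the inhibitor A20, changed by 1.78 and 0.51, Nfkbia by 1.51 and 0.87, and Relb by 1.02 and 0.57. Between the genotypes with TNF, 6 of the 8 were lower on the cKO-labelled array, with a median of -0.85. Sod2, with -0.46, and Sod3, with -0.41, were lower there by less than that median. Icam1 differed in this comparison by -1.39 and Ccl2, whose spots lay in part in patches, by -1.86. Without TNF, Icam1 was already lower on the cKO-labelled array, with -0.69, and was the only target lower there by 2 spreads.

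**Figure D4:**
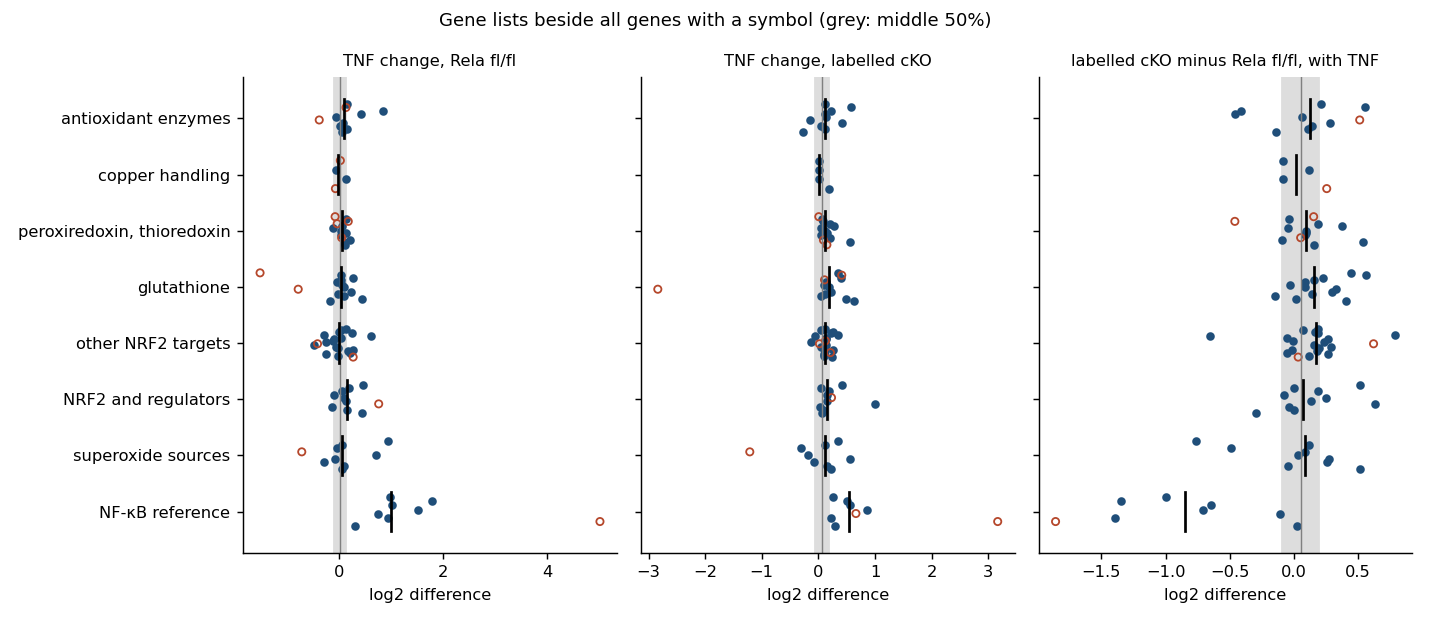
Log2 differences of the antioxidant genes and of 7 other gene lists, as the TNF change in controls (left), the TNF change on the cKO-labelled arrays (middle) and the cKO-labelled array minus that of controls with TNF (right). Each point is 1 gene, open circles have a spot in a patch on one of the arrays compared, black ticks are list medians, and the grey band holds the middle 50% of genes with a symbol. The medians of the antioxidant genes (0.10, 0.12 and 0.13) stay near 0, and those of the NF-κB targets are 0.995, 0.54 and -0.85.

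The genes whose pattern over the 4 arrays was most like that of Sod2 were found by the Euclidean distance of the 4 log2 values, each gene centred on its own mean, among 9663 genes with a symbol that were well above background and outside patches on all arrays. The nearest were 4931428F04Rik (distance 0.028), Il6st (0.036), Parp8 (0.040), Cxcl16 (0.052) and Pinc (0.056). Il6st, the gp130 receptor subunit shared by interleukin-6 cytokines, read 16.1 and 22.3 in controls without and with TNF, and 14.8 and 15.9 on the cKO-labelled arrays. Its TNF change was 0.47 in controls and 0.11 on the cKO-labelled arrays. With 4 arrays, such likeness is a description of these values only.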

How the data were processed

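Gene expression was measured on 4 arrays, 1 for each genotype (Rela fl/fl controls and cKO) without and with TNF. The authors deposited the processed intensity of each spot on an 8 x 60K mouse array, written by Agilent Feature Extraction 10.10.1.1 after background subtraction, and a table of scaled intensity values, which equal it after multiplication by a constant for each array (1.83, 1.77, 1.79 and 1.78).

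From the deposited intensity, log2 values were centred on each array's 75th percentile over transcript spots, which lay between 589 and 633 intensity units. Outlier spots (138 to 225 per array) were excluded, repeat spots were averaged, and the brightest probe over the 4 arrays represented a gene. A gene was tested when its brighter array was well above background. A dimmer value not well above background was replaced by the dimmest well-above-background value of that array. Symbols came from RefSeq by transcript (20435 of 20809 NM transcripts matched). A spot was bright when its signal exceeded that on every other array by 2-fold or more. Any spot with at least 3 bright spots among its 54 neighbours, up to 5 rows and 2 columns away, was taken to lie in a patch.

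With 1 array per condition no p-values were computed, and the number of arrays limits the precision. The genes and lists were chosen with earlier results of these data known. The genes named from a list were those past a log2 difference of 1 in any comparison, otherwise the 2 with the largest TNF change in controls, and the 5 genes most like Sod2 were also named. Genes of the lists named outside this rule were chosen after their values were seen. Alternatives were no scaling, quantile normalization, the authors' values, normexp (offset 50, on median intensities), both arrays well above background, no filter, the mean or median over probes, limits of 1.5- and 3-fold, and patches left out. The counting was tested on simulated data. The software was Python 3.11.15, numpy 2.4.6, pandas 2.3.3, R 4.3.3 and limma 3.58.1.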

Additional observations from a re-analysis of the deposited data

Results flagged for a closer look

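The 92 genes looked at are the 10 antioxidant enzymes and the pathway lists. Of these, 4 had TNF changes of opposite sign in controls and on the cKO-labelled arrays, each beyond 1 technical spread. Only genes well above background on all 4 arrays were counted. The share of all genes that meet this rule was not computed, so the count has no background beside it. With 1 array per condition, none of these differences was tested. None of the 10 antioxidant enzymes was among them. For Slc7a11, the change on the cKO-labelled arrays exceeded that in controls by 1.87, and its spot in controls without TNF lay in a patch. For Ggct, which acts in glutathione turnover, it did so by 0.81. Ggct read 3.23 without TNF and 2.85 with it in controls, and 2.44 and 3.77 on the cKO-labelled arrays. For Osgin1 the excess was 0.64. For Nox4 the difference was -0.88, and its dimmer probe changed by 0.19 in controls, where both of its spots lay in patches, and by -0.48 on the cKO-labelled arrays.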

How the results depend on the processing

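No analysis that pairs the arrays within each genotype was made, and each condition has 1 array. Of 444 values of the 10 antioxidant genes under the alternatives, 436 stayed within 1 technical spread of the value reported, 8 moved by more (those of Cat with the mean or median over probes, and the TNF changes of Sod1 and Sod3 among cKO-labelled arrays with quantile normalization) and 0 changed sign as a called value. The TNF change of Sod2 in controls ranged from 0.38 to 0.44 and that of Sod3 from 0.76 to 0.84. The number of genes lower with TNF among cKO-labelled arrays went from 0 to 1 (Cat) without scaling, with quantile normalization, with the authors' values and with normexp. The median of all genes in that comparison was 0.06, and -0.05 both without scaling and with the authors' values. The number higher on the cKO-labelled array without TNF went from 0 to 2 without scaling and to 1 with the authors' values. With a 1.5-fold limit, 1 gene (Sod3) passed with TNF in controls instead of 0. With patches left out, 8 of the 10 genes had a value in that comparison and 0 were lower instead of 1, since Nqo1 lost its value. Gsta3 was -0.46 between the genotypes without TNF, 0.13 with normexp and 0.015 with the mean or median over probes. Apart from the limit and the patches, the cause was not tested.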
